A study of Mus musculus with 6 samples.

Results

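Erythroid and platelet genes were examined in CD4+CD25+ regulatory T cells (Treg), which restrain immune responses. The 9 genes were Alas2, Klf1, Car2, Gata1, Epb42, Pf4, Ppbp, Itga2b and Gp9, chosen by symbol. They were measured by the 10 probe sets whose platform annotation gives 1 of these symbols alone, among 22626 probe sets and 12393 named genes. RNA came from cells separated magnetically, as CD4+CD25+, from mice of the Balb/c background. One group was wild type (WT replicates 1 to 3) and the other carried the genotype MBD2–/–, loss of the methyl-CpG binding protein Mbd2 (knockout replicates 1 to 3). Each group had 3 arrays and no treatment. The sources used here do not give age, how the knockout allele was made, or whether cells of several mice were pooled. The design text calls the knockout samples independent.

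Red blood cells and platelets arise from a common megakaryocyte-erythroid progenitor. The zinc finger factor Gata1 acts in both lineages, and Klf1 acts in the red cell branch. Developing red cells then make heme, globin and a membrane skeleton, while megakaryocytes make the adhesion receptors and granule chemokines that platelets carry. Treg are of neither lineage, and in a blood or spleen preparation these genes serve as markers of other cells. Gata1 is also used by eosinophils and mast cells, and Car2 by osteoclasts and some myeloid cells.

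The promoters of 8 of the 9 genes were found in the RefSeq table of build GRCm38.p6, where Car2 is not listed. They are shown because Gata1 and Klf1 bind DNA through short motifs. The 250 bases before the start site were searched on both strands for a GATA box (AGATAA or AGATAG, or either with T as its first letter) and for a CACCC box (CCACACCC). A GATA box lay in 3 of the 8 promoters and in 26.5% of all 32851 promoters of that length. A CACCC box lay in 0 of the 8 and in 3.20% of all. The 3 matches were in red cell genes. Alas2 lies at chrX:150547167-150547416 (plus strand) with a match starting 86 bases before the start site, Klf1 at chr8:84901732-84901981 (plus strand) with a match starting at 80, and Epb42 at chr2:121036878-121037127 (minus strand) with a match starting at 226. The match is in capitals and reads on the opposite strand in each.
Alas2: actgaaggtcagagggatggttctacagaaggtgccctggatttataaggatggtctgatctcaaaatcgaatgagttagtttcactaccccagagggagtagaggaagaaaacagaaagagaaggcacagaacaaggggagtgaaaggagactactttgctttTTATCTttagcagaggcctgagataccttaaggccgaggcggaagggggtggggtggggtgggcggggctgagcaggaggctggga
Klf1: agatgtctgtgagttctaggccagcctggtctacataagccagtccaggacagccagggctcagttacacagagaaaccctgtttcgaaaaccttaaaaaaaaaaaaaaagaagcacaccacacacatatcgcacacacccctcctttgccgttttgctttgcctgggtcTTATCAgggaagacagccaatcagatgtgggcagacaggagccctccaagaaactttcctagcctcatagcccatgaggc
Epb42: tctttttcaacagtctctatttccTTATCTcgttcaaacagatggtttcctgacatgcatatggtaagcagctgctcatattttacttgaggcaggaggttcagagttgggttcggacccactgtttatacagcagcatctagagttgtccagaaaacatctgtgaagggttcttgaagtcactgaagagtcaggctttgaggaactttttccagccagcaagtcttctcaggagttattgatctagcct

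The platelet genes Itga2b, at chr11:102469884-102470133 (minus strand), and Gp9, at chr6:87777820-87778069 (plus strand), held neither motif in these windows. They are printed because both were high together with Klf1 on 1 array, WT replicate 3.
Itga2b: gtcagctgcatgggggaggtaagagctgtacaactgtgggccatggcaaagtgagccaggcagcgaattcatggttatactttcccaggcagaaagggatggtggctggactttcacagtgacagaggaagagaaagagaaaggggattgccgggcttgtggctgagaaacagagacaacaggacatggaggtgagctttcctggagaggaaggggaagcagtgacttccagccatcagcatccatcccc
Gp9: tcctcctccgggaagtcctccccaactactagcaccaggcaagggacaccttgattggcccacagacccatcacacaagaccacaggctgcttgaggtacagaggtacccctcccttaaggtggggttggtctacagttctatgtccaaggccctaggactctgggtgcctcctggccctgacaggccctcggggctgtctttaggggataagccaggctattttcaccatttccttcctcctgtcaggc
The letters C and G in sequence, the site that methyl-CpG binding proteins recognise when methylated, occurred 1 to 4 times in each of the 8 windows. The median over all 32851 windows was 6, with quartiles of 2 and 16. A motif match or a CpG count describes the sequence and says nothing about binding.

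Expression is on the log2 scale of the deposited RMA values, 1 value per probe set; RMA corrects background, normalizes by quantiles and summarises probes. WT replicate 3 stood apart from the rest: its Pearson correlation with the other arrays, across probe sets, was 0.749 to 0.767, against 0.956 to 0.997 for pairs without it. Probe sets with a mean below the 40th percentile (log2 5.18) tended to read high there, with a median of 0.42 above the mean of the other 5 arrays. Those at or above that level tended to read low, with a median of -0.69. The values of WT replicate 3 were also less spread, with an SD of 1.36 over probe sets against 1.78 to 1.83 on the other arrays. The 6 arrays thus did not share 1 distribution, and its values may not be on the scale of the others. Comparisons of the 9 genes are therefore given for 6 arrays and for the 5 arrays without WT replicate 3. Other genes are mostly given by the 5-array fit, and several of them had the opposite sign with 6 arrays. The knocked-out transcript was lower in all 3 knockout arrays on both Mbd2 probe sets, at 5.71 to 6.14 against 6.93 to 8.80 in WT for the brighter. Of 9 T cell and Treg markers, 8 had a mean at or above log2 5.18. Cd3e was 9.94 to 10.90, and Foxp3 was 6.62 on knockout replicate 2, 6.93 on WT replicate 3 and 7.98 to 8.83 on the others. Ikzf2, the Treg factor Helios, lay under that level on WT replicate 3 (4.58) and knockout replicates 2 (4.59) and 3 (5.17). The summed linear level of the 9 was 5701 to 11850 in WT and 5268 to 8398 in knockout.

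Of the 9 genes, 0 were called between knockout and WT at an adjusted p under 0.05 (limma with Benjamini-Hochberg adjustment over all probe sets). That held in both fits. At an unadjusted p under 0.05 there was 1 gene with 6 arrays, Car2, and there were 2 with 5 arrays, Car2 and Itga2b. Over all probe sets, 0.0354% were called with 6 arrays and 0.99% with 5, and 3.43% and 17.7% had an unadjusted p under 0.05. The 6-array fit did not call the knocked-out gene itself on either Mbd2 probe set (limma adjusted p = 0.817 and 0.0744). The 5-array fit called both (limma adjusted p = 0.00348 and 0.00238). A lack of calls with 6 arrays is thus weak evidence of no difference. The median difference (knockout minus WT, log2) of the 9 genes was -0.20 with 6 arrays and 0.12 with 5, beside -0.03 and -0.01 over all probe sets. Only 4 of the 9 genes, namely Car2, Gata1, Itga2b and Gp9, had a mean over the 6 arrays at or above log2 5.18. Gp9 reached it through WT replicate 3, since its mean was 5.05 in the other 2 WT arrays and 5.17 in knockout. The files give no detection calls, so a value near 4 to 5 cannot be told from absence of the transcript.

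**Figure D1:**
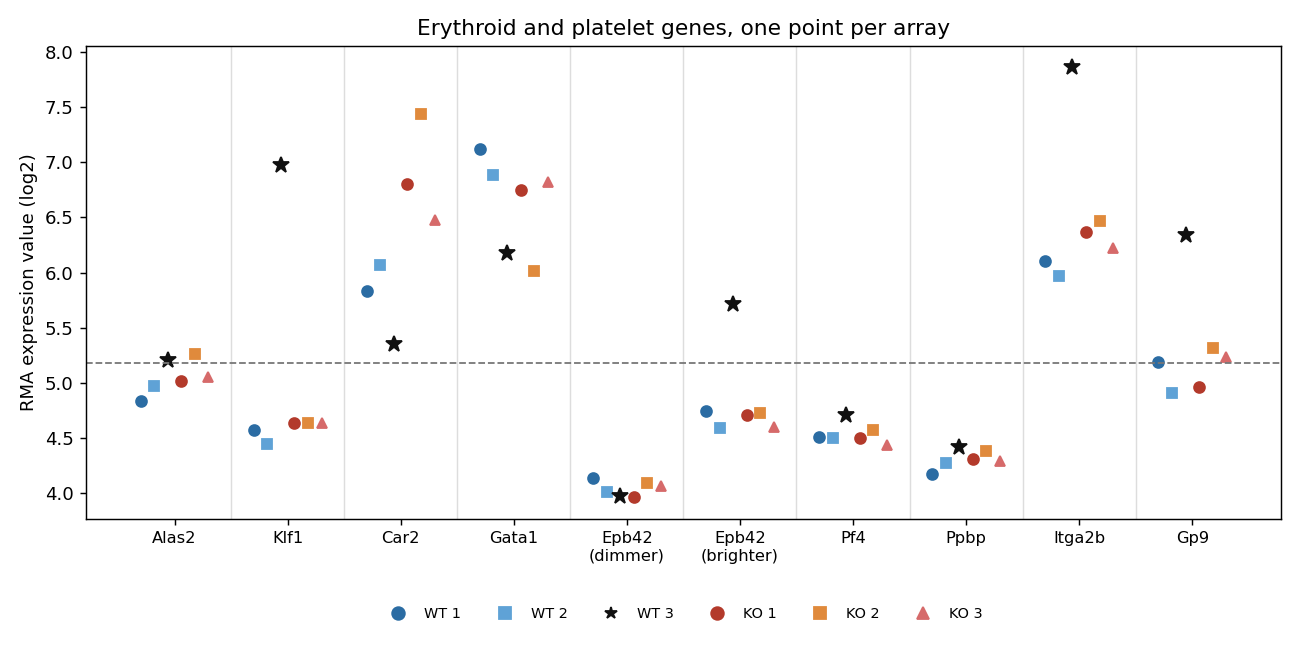
RMA expression values (log2, vertical axis) of the 10 probe sets, 1 point per array, for WT (circle, square and star for replicates 1, 2 and 3) and Mbd2 knockout arrays (circle, square and triangle). The dashed line is the 40th percentile of probe set means (5.18); Klf1, Itga2b, Gp9 and the brighter Epb42 probe set are highest on WT replicate 3, and Car2 is higher on the 3 knockout arrays than on the 3 WT arrays.

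Among the regulators, Gata1, the zinc finger factor of both lineages, gave 7.12, 6.88 and 6.18 in WT replicates 1, 2 and 3. In knockout replicates 1, 2 and 3 it gave 6.75, 6.01 and 6.82. Knockout replicate 2 and WT replicate 3 were the low arrays, and the groups overlapped. The difference was -0.20 with an SE of 0.34 with 6 arrays (limma adjusted p = 0.842). Without WT replicate 3 all 3 knockout arrays lay below both WT arrays, as did 23.3% of all probe sets. The 5-array difference was -0.47 (95% interval -1.11 to 0.17, limma adjusted p = 0.423). Leaving out knockout replicate 2 turned the 6-array difference to 0.06. Treg and T cell markers had the same order of groups in the 5 arrays: 9 of 9 were lower in knockout, with a median difference of -0.73 and 0 called (limma, 7 at an unadjusted p under 0.05). Foxp3, the defining Treg factor, was likewise lowest on knockout replicate 2, at 6.62. Whether fewer cells of a type or less RNA per cell lies behind a lower value cannot be told apart in bulk samples, and the part of these markers in the Gata1 values was not tested. Gata1 is also active in eosinophils and mast cells. Of 13 measured markers of those cells and basophils, 1 was called higher in knockout with 6 arrays (Prg2) and 4 with 5 arrays (Prg2, Epx, Mcpt8 and Cpa3), beside 0.0354% and 0.398% of all probe sets. Their summed level was 387 to 456 in WT and 1464 to 2118 in knockout, and their part in the Gata1 values was not tested.

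Klf1, the red cell factor that drives adult globin genes, gave 4.57 and 4.44 in WT replicates 1 and 2 and 6.98 in WT replicate 3. The 3 knockout arrays gave 4.64, 4.64 and 4.63. All arrays but 1 thus lay within 0.20 of one another, and WT replicate 3 lay 2.39 above their mean. Over all probe sets, 15.9% were at least 1 log2 unit above the mean of the other 5 arrays on WT replicate 3. The 6-array difference was -0.69 with an SE of 0.70 (limma adjusted p = 0.817). With 5 arrays it was 0.13 (95% interval -0.05 to 0.31, limma adjusted p = 0.434).

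Of the red cell effectors, Alas2, the enzyme that starts heme synthesis in red cells, gave 4.84, 4.98 and 5.20 in WT replicates 1, 2 and 3 and 5.01, 5.26 and 5.05 in knockout. The groups overlapped with 6 arrays, and without WT replicate 3 the knockout arrays were all higher, as were those of 15.9% of probe sets. The difference was 0.10 with 6 arrays (limma adjusted p = 0.831) and 0.20 with 5 (95% interval -0.06 to 0.46, limma adjusted p = 0.394). Epb42, a protein of the red cell membrane skeleton, had a pair of probe sets. The brighter gave 4.74, 4.59 and 5.71 in WT and 4.71, 4.73 and 4.60 in knockout, so WT replicate 3 alone was high. The dimmer gave 3.96 to 4.14 on every array and was not high on WT replicate 3. The brighter differed by -0.34 with 6 arrays and by 0.01 with 5 (95% interval -0.20 to 0.23).

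Car2, the carbonic anhydrase 2 of red cells and several other cell types, was the member with the widest gap between groups. It gave 5.83, 6.06 and 5.35 in WT replicates 1, 2 and 3. In knockout replicates 1, 2 and 3 it gave 6.80, 7.43 and 6.48. Every knockout array lay above every WT array, which held for Car2 alone of the 9 genes and for 7.21% of all probe sets (6.2% lay wholly below), and knockout replicate 2 was the highest. The mean was 5.75 ± 0.36 (SD, n = 3) in WT and 6.90 ± 0.48 (SD, n = 3) in knockout. The difference was 1.15 with an SE of 0.31 and did not pass the threshold (limma adjusted p = 0.817, unadjusted p = 0.0114). Without WT replicate 3 the difference was 0.96 (95% interval 0.27 to 1.64, limma adjusted p = 0.172). Without both WT replicate 3 and knockout replicate 2 the fit called 2586 of all 22626 probe sets and 1 of the 9 members. That member was Car2, at 0.69 (limma adjusted p = 0.0169). Over all alternatives of the 5-array fit its adjusted p ran from 0.0169 to 0.651 and its difference from 0.69 to 1.17.

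Markers of myeloid cells were, like Car2, higher in knockout. Of 10 monocyte and macrophage markers, 10 were higher in knockout in both fits, with medians of 2.01 and 2.12. Their summed linear level was 384 to 549 in WT and 2959 to 6853 in knockout, with the highest value on knockout replicate 2. With 6 arrays 0 of them were called, and with 5 arrays 1, Lyz2, was called higher (limma), beside 0.0354% and 0.398% of all probe sets. Of 14 neutrophil markers, 14 were higher in both fits, with a median of 2.56 with 6 arrays and 2.64 with 5. Of them 2 were called with 6 arrays and 8 with 5, beside the same shares of all probe sets. Their summed level was 754 to 1698 in WT and 24232 to 35139 in knockout. Within the knockout group Elane, Mpo, Prtn3 and Ctsg were lowest on replicate 2, where Car2 was highest. Mpo gave 8.36, 6.82 and 7.51 in knockout replicates 1, 2 and 3. The other neutrophil markers were highest on knockout replicate 2. B cell markers summed to 290 to 725 in WT and 1042 to 1686 in knockout, and 4 of 5 were higher with 6 arrays. The part of these cells in the Car2 values was not tested.

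Likeness to Car2 was measured by Pearson correlation over the 5 arrays among 8186 other genes above the 40th percentile. The value is a description over few arrays, which share the position of knockout replicate 2. The 3 genes most like Car2 were Clic4, an intracellular chloride channel protein (r = 0.9999), Pglyrp1, an antibacterial protein of neutrophil granules (r = 0.999), and Ostf1, osteoclast stimulating factor 1 (r = 0.998). Clic4 gave 7.87 and 8.12 in WT replicates 1 and 2 and 8.86, 9.51 and 8.54 in knockout. For Gata1 they were Spg7, Atxn7l3 and Krt10, each at r = 0.999. Krt10 gave 6.54 and 6.35 in WT replicates 1 and 2 and 6.28, 5.69 and 6.31 in knockout, so knockout replicate 2 was again the low array.

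**Figure D2:**
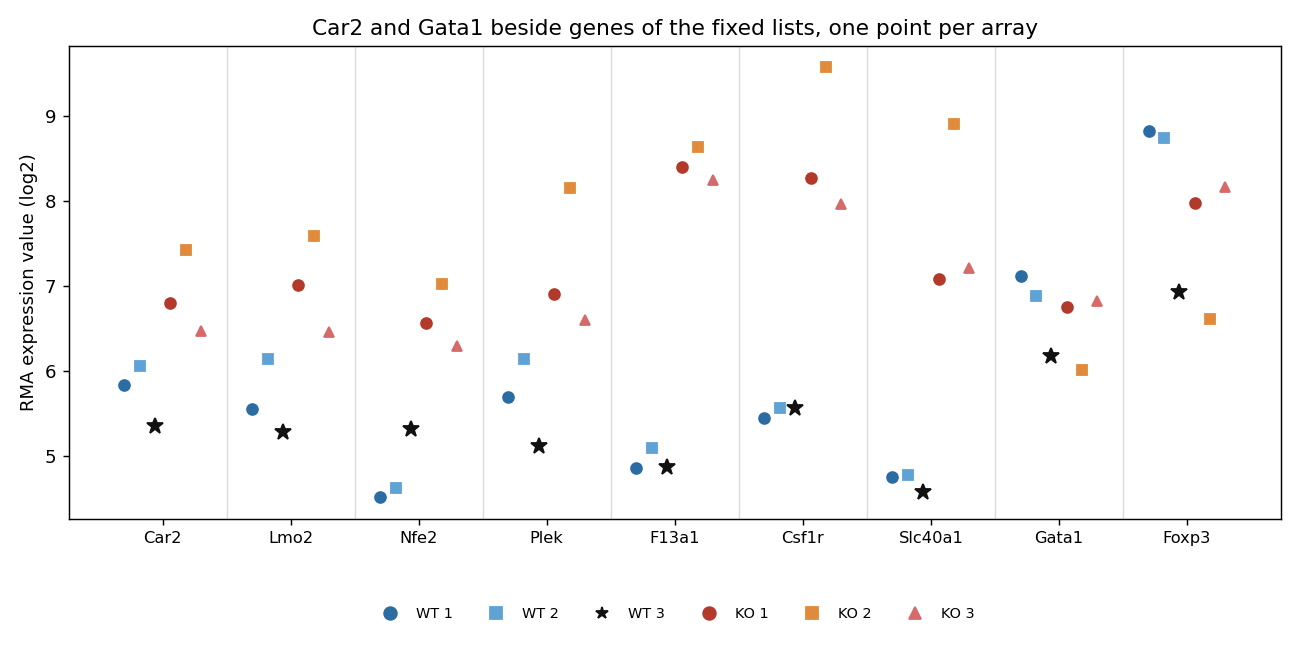
RMA expression values (log2, vertical axis) of Car2 and Gata1 beside other genes of the lists, 1 point per array, with WT in blue and black and knockout in red and orange. Car2, Lmo2, Nfe2, Plek, F13a1, Csf1r and Slc40a1 are each highest on knockout replicate 2, where Gata1 and Foxp3 are lowest. The genes shown are a choice from the lists. Mpo, not shown, had another order, at 8.36, 6.82 and 7.51 in knockout replicates 1, 2 and 3.

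The platelet receptors came next. Itga2b, the alpha subunit of the fibrinogen receptor (CD41) and an early megakaryocyte marker, gave 6.10, 5.97 and 7.86 in WT replicates 1, 2 and 3. In knockout it gave 6.37, 6.46 and 6.23. WT replicate 3 was 1.63 above the mean of the others. Without it the 3 knockout arrays were all above the 2 WT arrays, as were those of 15.9% of all probe sets. Of the 9 genes, 5 had that order in the 5 arrays. The difference was -0.29 with an SE of 0.52 with 6 arrays (limma adjusted p = 0.847). Without that array the difference was 0.31 (SE 0.10) by limma (adjusted p = 0.194, unadjusted p = 0.0205). The direction therefore rested on WT replicate 3, and neither value passed the threshold.

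Gp9, the glycoprotein IX subunit of the von Willebrand factor receptor, gave 5.19, 4.91 and 6.34 in WT and 4.96, 5.31 and 5.23 in knockout. WT replicate 3 was again the high array, and the other arrays of both groups overlapped. The difference was -0.31 with 6 arrays (limma adjusted p = 0.817) and 0.12 with 5 (95% interval -0.23 to 0.47, limma adjusted p = 0.735).

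The chemokines of platelet granules varied little. Pf4, platelet factor 4, gave 4.51, 4.50 and 4.71 in WT and 4.50, 4.57 and 4.43 in knockout. Its difference was -0.07 with 6 arrays and 0.00052 with 5 (95% interval -0.19 to 0.19). Ppbp, the precursor of platelet basic protein, gave 4.18, 4.27 and 4.42 in WT and 4.31, 4.38 and 4.29 in knockout. Its difference was 0.04 with 6 arrays and 0.10 with 5 (95% interval -0.08 to 0.29). In RefSeq Ppbp and Pf4 neighbour each other on chromosome 5. Both were below the 40th percentile level in each group, and they spanned only 0.27 (Pf4) and 0.24 (Ppbp) over the 6 arrays.

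**Figure D3:**
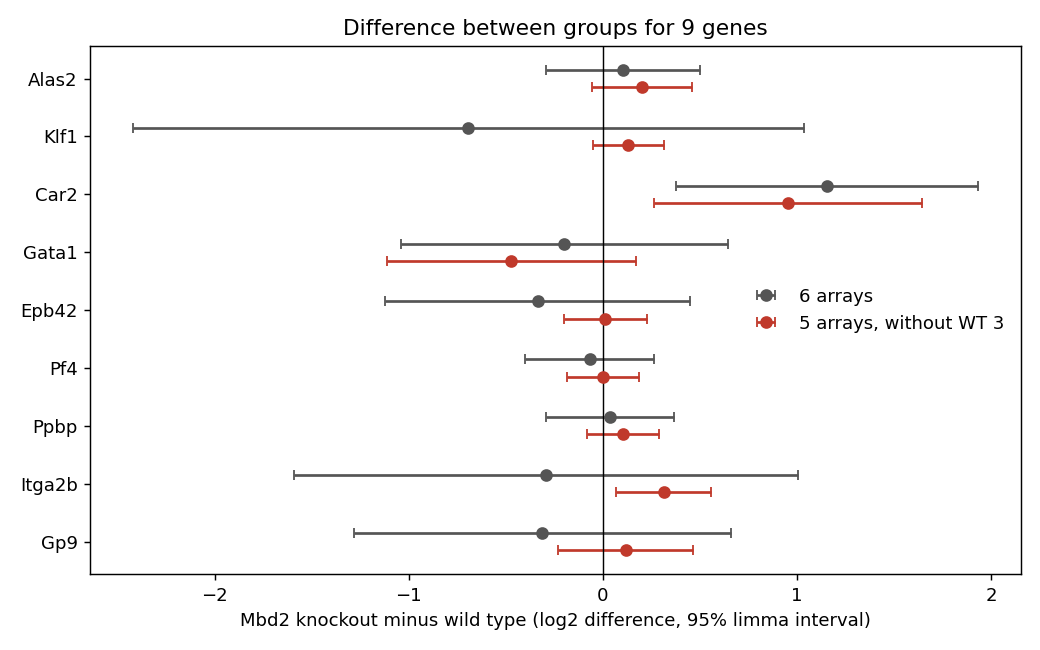
Knockout minus WT (log2 difference, horizontal axis) for the 9 genes, each by its brightest probe set, with 95% limma intervals, for 6 arrays (grey) and for 5 arrays without WT replicate 3 (red). Car2 lies above 0 in both fits; Klf1, Epb42, Pf4, Itga2b and Gp9 change sign, and their intervals narrow without that array.

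On WT replicate 3 most members stood outside the range of the other arrays. It lay above all 5 other arrays for 6 of the 9 genes (Klf1, Epb42, Pf4, Ppbp, Itga2b and Gp9), below them for Car2, and inside their range for Alas2 and Gata1. Over all probe sets it was above the others for 42.6% and below them for 41.8%. Those shares do not allow for level. On that array, 83.0% of probe sets with a mean under the 40th percentile level read above the mean of the other 5 arrays. At or above that level it was 27.3%. Of the 9 genes, 5 were under that level, but Itga2b and Gp9 of the 6 were at or above it. The level is a mean that includes WT replicate 3. These last shares count readings above the mean of the other 5 arrays, not above all 5. Whether the 6 are an excess was thus not tested. The sizes were uneven: 2.39 for Klf1, 1.63 for Itga2b, 1.22 for Gp9 and 1.04 for Epb42, but 0.20 for Pf4, 0.18 for Alas2 and 0.13 for Ppbp. Klf1 and Epb42 have a GATA box in the promoter windows shown, and Itga2b and Gp9 have none. Alas2 also has one and stayed inside the range of the other arrays. Whether these motifs bear on the values of that 1 array was not tested.

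Other genes of the pathways were taken from 5 lists holding 79 genes, of which 63 had a probe set of their own. With 6 arrays 1 of the 63 was called higher and 0 lower (limma, with 4 higher and 0 lower at an unadjusted p under 0.05). With 5 arrays 2 were called higher and 0 lower (12 higher and 2 lower unadjusted). Over all probe sets 0.398% were called higher and 0.592% lower with 5 arrays. The median difference of the 63 was -0.02 with 6 arrays and 0.07 with 5.

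Both called genes are also expressed by myeloid cells. F13a1, which encodes the catalytic chain of the clot-stabilising factor XIII in platelets and monocytes, gave 4.86, 5.10 and 4.87 in WT and 8.41, 8.63 and 8.25 in knockout. The groups lay far apart, by 3.49 with 6 arrays (limma adjusted p = 0.0084) and 3.45 with 5 (limma adjusted p = 0.00233). The 6-array call was lost when WT replicate 1, WT replicate 2 or any 1 knockout array was left out (adjusted p 0.0646 to 0.106), with differences of 3.38 to 3.58. In the 5-array fit it was lost without WT replicate 1 (adjusted p = 0.0758). Nfe2, a leucine zipper factor needed for platelet release and also active in other blood cells, gave 4.52, 4.63 and 5.32 in WT and 6.57, 7.02 and 6.29 in knockout. Its difference was 2.06 with 5 arrays (limma adjusted p = 0.0266) and 1.81 with 6 (limma adjusted p = 0.447). In the 5-array fit this call was lost without WT replicate 1, WT replicate 2, knockout replicate 1 or knockout replicate 3 (adjusted p 0.062 to 0.358). The myeloid marker lists described beside Car2 were likewise higher in knockout, and their part in the values of both genes was not tested.

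In the list of erythroid transcription factors, of 10 genes, Nfe2 alone was called, with 5 arrays. Ranked next by p and not called were Gata2, the factor of early progenitors and mast cells, at 0.89 (limma adjusted p = 0.0707), Bcl11a, a repressor of fetal globin, at 0.65, and Lmo2, a bridging partner of Gata1, at 1.17. Lmo2 gave 5.56, 6.15 and 5.29 in WT and 7.02, 7.59 and 6.46 in knockout. The groups did not overlap, and 7.21% of all probe sets were likewise wholly higher in knockout. Its limma adjusted p was 0.817 with 6 arrays and 0.181 with 5. Tal1, the helix-loop-helix partner of that complex, was at 0.13, and Gfi1b, a repressor needed in both lineages, at 0.06. With 6 arrays Tal1 was at -0.11 and Gfi1b at -0.29.

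For heme synthesis, 10 of 11 genes were measured and 0 were called in either fit (limma). At an unadjusted p under 0.05 there were 0 with 6 arrays and 2 with 5, 1 in each direction. The 4 ranked first with 5 arrays were Alas1, the heme-starting enzyme of most tissues, at 0.33, Uros at -0.31, Cpox at -0.24 and Ppox at -0.20, the last 3 being later enzymes of the pathway. With 6 arrays they were at 0.26, 0.06, 0.15 and -0.20, so Uros and Cpox changed sign. Tfrc, the transferrin receptor used by red cell precursors and by dividing lymphocytes, was 7.87 and 7.80 in WT replicates 1 and 2 and 7.94, 7.29 and 8.14 in knockout. Those arrays overlapped, and WT replicate 3 was far lower, at 5.56. A further Tfrc probe set differed in the opposite direction in both fits.

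Of 28 globin and red cell membrane genes, 21 had a probe set of their own and 0 were called (limma, with 0 at an unadjusted p under 0.05 with 6 arrays and 1 with 5). Across the 5 arrays each of the 21 varied by only 0.12 to 0.64. WT replicate 3 lay above all other arrays for 16 of the 21. Of the 21, 10 had a mean under the 40th percentile level, where most probe sets read high on that array, and 11 were at or above it. Hba-a1, Hbb-bh1, Slc4a1, Ank1, Sptb, Rhd, Epor and Trim10 were at or above that level and also among the 16. The mean used for the level includes WT replicate 3. Among the 16, Sptb, erythroid beta spectrin, gave 6.89 against 5.12 to 5.27. Ank1, the red cell ankyrin, gave 7.03 against 5.66 to 5.78. The 4 ranked first with 5 arrays were Slc4a1, the band 3 anion exchanger, at 0.43, Add2 at 0.16, Rhd at 0.20 and the embryonic globin Hbb-bh1 at 0.12. With 6 arrays they were at 0.03, -0.34, -0.11 and -0.49. The brightest Slc4a1 probe set gave 4.85, 4.85 and 6.05 in WT and 5.06, 5.31 and 5.49 in knockout, and another gave -0.08 with 5 arrays. Add2, Ank1 and Hbb-bh1 also had a further probe set of opposite sign with 5 arrays.

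Adult globin RNA was read by 4 probe sets whose annotation lists several adult globin genes at once, so no single gene is named from them. They were picked out after their values were seen. The one for adult beta globins gave 7.53, 9.71 and 8.37 in WT replicates 1, 2 and 3 and 9.13, 10.14 and 9.40 in knockout. One for adult alpha globins gave 7.37, 10.20 and 8.90 in WT and 9.43, 10.86 and 9.83 in knockout. On all 4, WT replicate 1 was the lowest array and knockout replicate 2 the highest. WT replicate 2 lay above knockout replicates 1 and 3, so the groups overlapped. The differences were 0.92 to 1.22 with 6 arrays and 0.93 to 1.26 with 5 (limma adjusted p 0.817 and 0.523 to 0.543). Between WT replicates 1 and 2 the beta globin probe set differed by 2.18, while Alas2 differed by 0.14, Klf1 by -0.13 and Epb42 by -0.15. The summed level of the neutrophil markers differed between these WT arrays too, at 754 and 1698. Those markers were uneven: S100a8 differed by 1.86, Ctsg by 0.04 and Elane by -0.17. A link to the globin values was not tested. A probe set annotated to Hba-a1 alone did not follow: it gave 4.73, 4.65 and 7.45 in WT and 4.82, 4.93 and 4.62 in knockout.

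**Figure D4:**
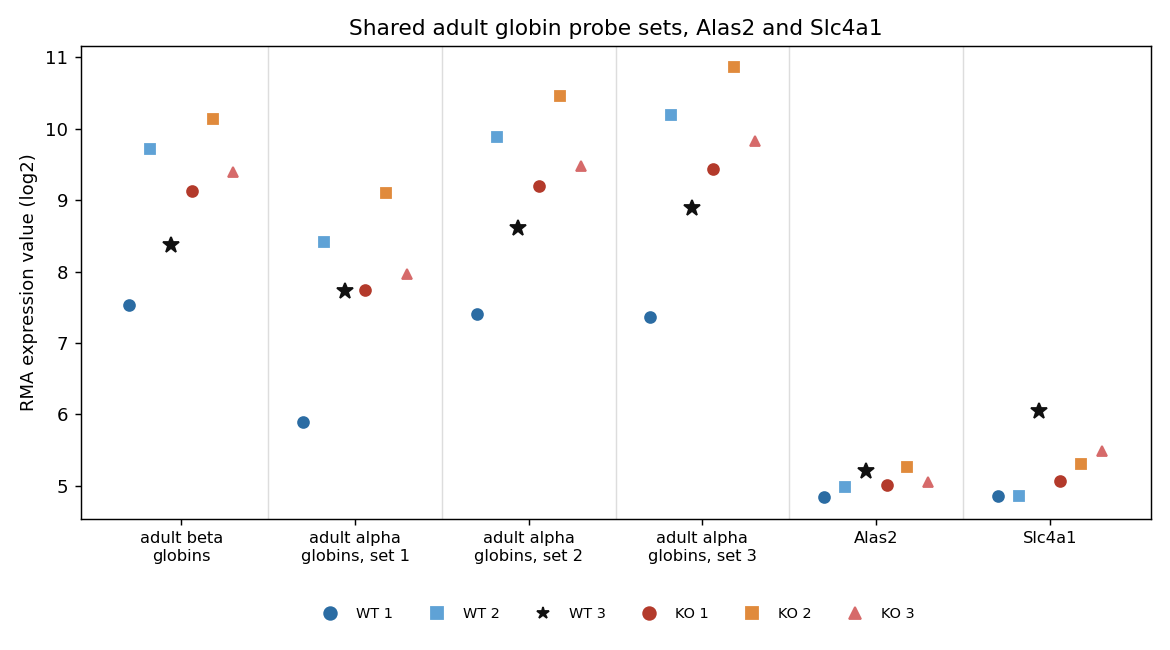
RMA expression values (log2, vertical axis) of 4 probe sets shared by adult globin genes, beside Alas2 and Slc4a1, 1 point per array. The globin probe sets span 2.60 to 3.49 between WT replicate 1 (lowest) and knockout replicate 2 (highest), while Alas2 spans 0.42.

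Of the platelet lists, 11 of 15 adhesion receptor genes were measured and 0 were called (limma, with 0 at an unadjusted p under 0.05 with 6 arrays and 1 with 5). That gene was Cd9, a tetraspanin of platelets and many leukocytes, at 8.26, 8.27 and 6.81 in WT and 8.76, 8.67 and 8.75 in knockout. Its difference was 0.46 with 5 arrays (limma adjusted p = 0.0589). The next by p with 5 arrays were Gp1bb, a partner of Gp9, at 0.13, Selp, P-selectin, at -0.26, and the ADP receptor gene P2ry1 at 0.11. With 6 arrays they were at -0.30, -0.02 and -0.41. Itgb3, the beta subunit that pairs with Itga2b, gave 5.15, 4.94 and 6.19 in WT and 4.86, 5.0 and 5.07 in knockout, so it was high on the same array as its partner. Among 11 of 15 granule and cytoskeleton genes F13a1 alone was called. Clu, clusterin, was at 0.42, Fli1, a megakaryocyte and lymphocyte factor, at -0.40, and Thbs1, thrombospondin, at 0.33, none of them called (5 arrays). With 6 arrays they were at 0.07, 0.57 and 0.14, so Fli1 changed sign. Plek, the pleckstrin of platelets and leukocytes, gave 5.70, 6.15 and 5.12 in WT and 6.90, 8.16 and 6.60 in knockout, with a 5-array difference of 1.30 (limma adjusted p = 0.24). Vwf, von Willebrand factor, was 4.34 and 4.29 in WT replicates 1 and 2, 5.68 in WT replicate 3 and 4.36 to 4.66 in knockout.

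**Figure D5:**
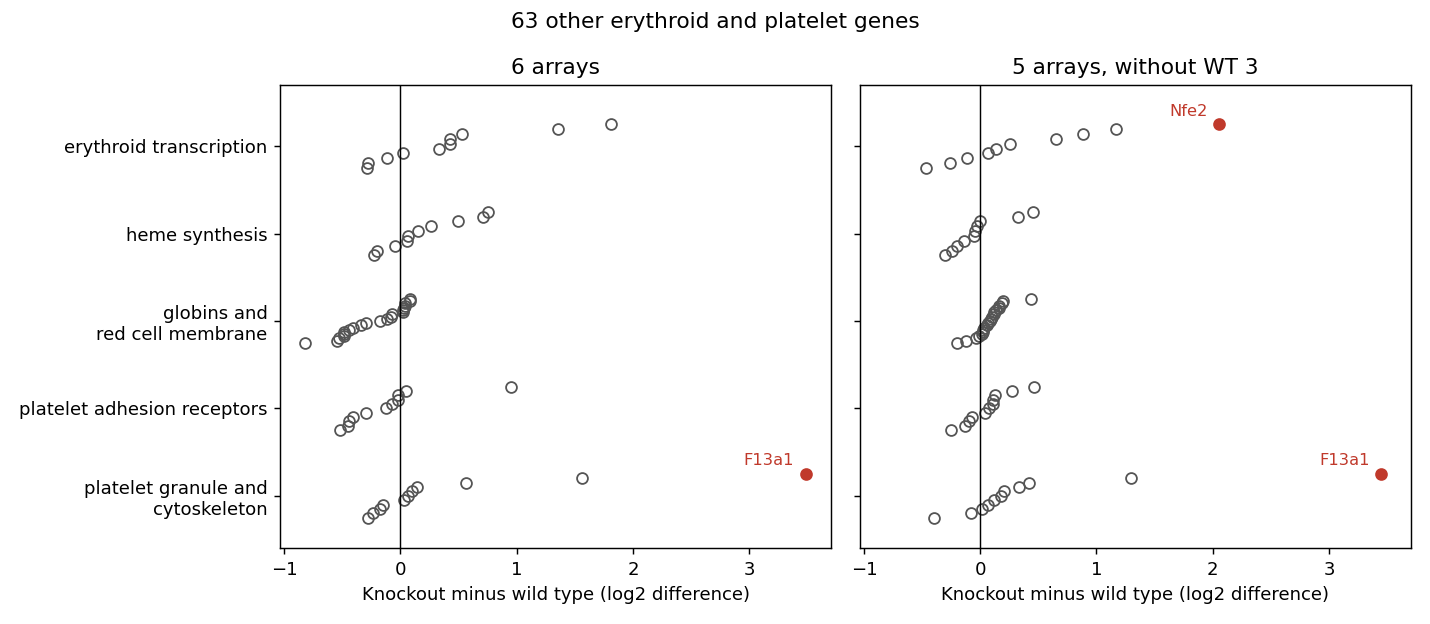
Knockout minus WT (log2 difference, horizontal axis) for the 63 other erythroid and platelet genes by list, 1 point per gene, with 6 arrays (left) and 5 arrays (right). Filled red points are those with an adjusted p under 0.05: F13a1 in both panels and Nfe2 in the right panel.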

How the data were processed

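The authors deposited log2 expression values per probe set for 6 arrays, made with RMA per the submitters' processing notes. The sources used here name neither the software nor the set of arrays normalized jointly. Of 22690 probe sets, 64 controls were left out. Symbols came from the platform annotation, updated by gene ID through RefSeq (GRCm38.p6): 20380 probe sets had 1 symbol, 691 several and 1555 were not listed. All 22626 were fitted without a filter, so that every member was tested, with limma 3.58.1 in R 4.3.3 (lmFit, eBayes, group as the only term) and Benjamini-Hochberg adjustment at 0.05. A gene was represented by its brightest probe set. Of 26 genes in the lists with several, 10 had one of opposite sign with 6 arrays and 8 with 5. Each fit used 6 arrays or 5, without WT replicate 3. The members, lists, fits and alternatives were chosen with earlier results of these data known. All members were named, with called list genes, or up to 4 per list by p in the 5-array fit, and the 3 genes most like each member spanning over 1 log2 unit. Others named (Tal1, Gfi1b, Tfrc, Itgb3, Vwf, Plek, Sptb, Ank1, Hba-a1) were picked after their values were seen. So were Epor, Trim10, Elane, Mpo, Prtn3, Ctsg, S100a8, Ikzf2, Csf1r and Slc40a1. Summed levels add unlogged values. Progenitor markers were also listed: 6 of 7 were higher in both fits, 0 called (1 and 3 at an unadjusted p under 0.05). The fit was tested on simulated data. The number of arrays limits the precision. Figures used matplotlib 3.10.9.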

Additional observations from a re-analysis of the deposited data

How the results depend on the processing

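With 6 arrays, 8 probe sets were called, all 8 higher in knockout, and after quantile normalization again 7 were higher and 1 lower; the filter on the lowest 40% gave 14, the replicate number as a block gave 0, and leaving out 1 array gave 0 to 224, the latter without WT replicate 3. With 5 arrays, 224 were called; leaving out 1 array gave 4 (without WT replicate 1) to 2586 (without knockout replicate 2, the same fit as leaving out that array and WT replicate 3 together). The count of members called was 0 under every alternative of both fits except that last one, where it was 1 (Car2); leaving out 1 array of the 5 thus gave 0 to 1. Whether the replicate numbers pair the samples could not be settled, because WT replicate 3 weighs on the deviations of all WT arrays. Deviations from the group means of same-numbered arrays correlated at 0.16, -0.12 and -0.14. Arrays did not all correlate best with their own number. With 5 arrays the replicate block gave 164 calls. That block leaves knockout replicate 3 without a partner, and the fit without knockout replicate 3 and without the block gave 24. F13a1 lost its 6-array call with that block (adjusted p = 0.169). Directions of uncalled members turned as follows. With 6 arrays, Pf4 was 0.012 after quantile normalization again, and leaving out 1 array gave ranges of -1.14 to 0.13 for Klf1, -0.55 to 0.013 for Epb42, -0.10 to 0.00052 for Pf4, -0.017 to 0.10 for Ppbp, -0.63 to 0.31 for Itga2b, -0.60 to 0.12 for Gp9 and -0.47 to 0.060 for Gata1. With 5 arrays, Epb42 was -0.024 and Pf4 -0.028 after quantile normalization again, -0.00042 and -0.013 after median centring, and -0.012 and -0.034 without both WT replicate 3 and knockout replicate 2; Epb42 was -0.011 by the mean of its probe sets; leaving out 1 array gave -0.064 to 0.090 for Epb42, -0.034 to 0.035 for Pf4 and -0.024 to 0.26 for Gp9. The trended robust variance changed no call of a member. Where WT replicate 1 or 2 was left out of 5 arrays, the lone WT array was assumed to vary like the knockout arrays. For other turns the cause was not tested. Signals near background limit the dim members.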
